A study of Mus musculus with 2 samples.

Results

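Transcripts of 9 transcription factors that define the pancreatic beta cell were followed in MIN6 cells, a mouse beta-cell tumour line, after 1 h at 25 mM or at 2.8 mM glucose. The genes were Pdx1, Mafa, Nkx6-1, Nkx2-2, Neurod1, Isl1, Pax6, Foxa2 and Insm1. They were chosen by name, and each symbol matched 1 row of the 55466 genes listed for each library. The 25 mM group was labelled as a hyperglycemic treatment and the 2.8 mM group as a hypoglycemic one, with 1 library each. Cells of both groups had been grown in serum-containing medium, then held in a salt buffer at 2.8 mM glucose for 0.5 h before the hour of treatment in the same buffer. The line was derived from an insulinoma of a transgenic mouse that expressed the large T antigen of a virus under an insulin promoter, so it is a proliferating model and not a resting beta cell. No source used here says whether a library is 1 culture or a pool of several.

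All 9 genes were transcribed in both libraries and each differed by less than 1.2-fold between them. With 1 added to each FPKM, Mafa had the highest log2 change (0.17, 87.0 FPKM at 25 mM, against 77.1 at 2.8 mM), although the plain ratios of Mafa, Nkx2-2 and Insm1 were all 1.13, and Foxa2 had the lowest (-0.17, 12.9 FPKM at 25 mM, against 14.6 at 2.8 mM). Pdx1, Pax6 and Mafa were the 3 most abundant of the set and Insm1 the least abundant at both concentrations. FPKM are fragments scaled to transcript length and to library size, so levels of different genes can be set side by side. Changes are log2((FPKM at 25 mM + 1)/(FPKM at 2.8 mM + 1)), in which the added 1 understates the change of low genes such as Insm1. With 1 library per group no difference could be tested against a replicate spread, and every difference is one between 2 libraries.

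Beta-cell identity rests on a small network of transcription factors that bind together at the regulatory regions of the insulin gene and of other genes for glucose sensing and secretion. Pdx1, a homeodomain protein, and Neurod1, a basic helix-loop-helix protein that pairs with ubiquitous E proteins, activate the insulin promoter together with Mafa, a basic leucine zipper protein that marks mature beta cells and is known for its response to glucose. Nkx6-1 and Nkx2-2 hold beta cells apart from other islet cell types, Isl1 and Pax6 act across all endocrine islet cells, Foxa2 opens chromatin at genes such as Pdx1, and Insm1 is a zinc finger repressor that endocrine cells need in order to differentiate. Many of the factors regulate each other's genes as well as their own.

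Promoter sequences are shown for 2 hormone genes on which these factors are known to converge, and for Pdx1, itself a target of Foxa2 and other members. The windows run from 250 bases before the annotated start to 50 after it, on GRCm38.p6 from RefSeq, all on the plus strand. They are chr19:52264047-52264346 for Ins1, chr6:142298175-142298474 for Iapp and chr5:147269847-147270146 for Pdx1. Capitals mark every match, on either strand, to 3 motifs. The first is TAAT, the core that many homeodomain proteins recognise. Another is CANNTG, the E-box bound by dimers such as Neurod1 with an E protein. The last is TGCTGA, the half-site of Maf proteins.
Ins1: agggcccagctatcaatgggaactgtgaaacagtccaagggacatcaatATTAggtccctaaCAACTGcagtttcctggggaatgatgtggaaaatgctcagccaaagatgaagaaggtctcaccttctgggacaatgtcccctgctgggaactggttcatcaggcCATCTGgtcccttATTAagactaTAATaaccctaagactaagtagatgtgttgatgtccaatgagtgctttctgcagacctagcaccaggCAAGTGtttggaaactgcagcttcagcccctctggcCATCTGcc
Iapp: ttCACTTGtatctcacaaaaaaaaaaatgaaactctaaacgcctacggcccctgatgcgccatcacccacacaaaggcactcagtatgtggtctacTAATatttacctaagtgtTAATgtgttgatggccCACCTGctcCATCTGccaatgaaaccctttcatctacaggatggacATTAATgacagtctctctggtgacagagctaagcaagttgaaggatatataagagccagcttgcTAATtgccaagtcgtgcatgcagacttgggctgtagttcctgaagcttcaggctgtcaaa
Pdx1: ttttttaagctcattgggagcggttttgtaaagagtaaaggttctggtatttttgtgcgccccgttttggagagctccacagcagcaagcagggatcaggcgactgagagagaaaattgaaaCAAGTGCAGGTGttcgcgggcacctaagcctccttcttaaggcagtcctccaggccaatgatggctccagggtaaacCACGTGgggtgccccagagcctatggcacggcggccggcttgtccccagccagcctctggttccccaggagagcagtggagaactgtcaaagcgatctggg
The Ins1 window held 3 homeodomain cores and 4 E-boxes, and the Iapp window 5 cores, of which 2 overlap each other, and 3 E-boxes. The Pdx1 window held 3 E-boxes, 2 of them side by side, and 0 homeodomain cores. An exact match to the Maf half-site was found in 0 of these 3 windows. Variants of the motifs were not searched, so a Maf site of another sequence would stay unmarked. Among 32851 such windows of all genes in the table, 58.0% held the homeodomain core, 72.3% the E-box and 19.5% the Maf half-site, so the core and the E-box are common anywhere. Of the 9 factors, 7 had at least 1 window in the table, all except Mafa and Insm1. The homeodomain core occurred in a window of 4 of these 7 genes (Nkx2-2, Isl1, Pax6 and Foxa2), the E-box of 6 and the Maf half-site of 3. Some of these genes have several windows, whereas the percentages above count windows. Of the 10 windows of these genes, 6 held the core, 6 the E-box and 3 the Maf half-site.

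The libraries had similar depth and the profile of an insulin-producing line. Fragments could be recovered from the steps between low FPKM values, which gave a fitted total of 16640000 fragments at 25 mM and 19520000 at 2.8 mM. Summed FPKM was 670220 at 25 mM and 702489 at 2.8 mM. Of 15 beta-cell markers, 13 reached a mean of 1 FPKM, the level from which a gene is called expressed here. The exceptions were Slc2a2, for a glucose transporter that rodent beta cells use (0.653 FPKM at 25 mM and 0.469 at 2.8 mM), and Ucn3, a hormone of mature beta cells (0.148 and 0.171 FPKM). Of 36 markers of other islet and pancreatic cells, 9 were expressed and 21 were listed at 0 in both libraries, and their summed FPKM was 3988 at 25 mM and 4103 at 2.8 mM. Most of that sum was Gcg, the glucagon gene, at 2764 FPKM at 25 mM, against 2804 at 2.8 mM, and Ttr was at 756 FPKM at 25 mM, against 851 at 2.8 mM. Of the alpha-cell factor genes, Irx2 was at 4.84 FPKM at 25 mM, against 4.48 at 2.8 mM, and Irx1 was listed at 0, as was the delta-cell hormone gene Sst. These libraries are bulk samples, in which fewer cells of a type and less RNA per cell cannot be told apart.

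Pdx1, the homeodomain activator needed for pancreas formation and for insulin transcription (ENSMUSG00000029644, GRCm38 chromosome 5, 147269959 to 147275848), stood at 88.0 FPKM at 25 mM, against 92.7 at 2.8 mM. The 25 mM library was lower, with a log2 change of -0.07. Counting error alone gave a 95% interval of -0.15 to -0.0014 for the log2 ratio without the added 1, from 2768 and 3382 recovered fragments. Such intervals could be given for the 5 factors with a single annotated transcript. They compare the 2 libraries and not the conditions, because they hold no variation between cultures.

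Mafa, which binds the insulin promoter beside Pdx1 and Neurod1 (ENSMUSG00000047591, chromosome 15, 75745490 to 75748228), stood at 87.0 FPKM at 25 mM, against 77.1 at 2.8 mM. It was the factor with the widest gap in FPKM, 9.86, and the 25 mM library was the higher. The counting interval of its log2 ratio was 0.11 to 0.24, from 3576 fragments at 25 mM and 3689 at 2.8 mM. Neurod1, the helix-loop-helix activator (ENSMUSG00000034701, chromosome 2, 79452521 to 79456751), stood at 39.5 FPKM at 25 mM, against 41.1 at 2.8 mM, a log2 change of -0.06. Its counting interval, -0.16 to 0.04, included 0. The 3 direct activators of the insulin promoter did not share a direction in the deposited values, as Mafa was higher and Pdx1 and Neurod1 were lower at 25 mM; Neurod1 turned higher when both libraries were scaled to the same sum.

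The NK-homeodomain factors were both higher at 25 mM. Nkx6-1, which represses genes of other islet cells (ENSMUSG00000035187, chromosome 5, 101658139 to 101664996), stood at 34.4 FPKM at 25 mM, against 32.2 at 2.8 mM, a log2 change of 0.09. Its counting interval was -0.0019 to 0.19. Nkx2-2, which is needed for beta cells to form and stay distinct from alpha cells (ENSMUSG00000027434, chromosome 2, 147177546 to 147194243), stood at 17.5 FPKM at 25 mM, against 15.4 at 2.8 mM, a log2 change of 0.17. Nkx2-2, Isl1, Pax6 and Foxa2 have between 4 and 26 annotated transcripts, so isoform assignment enters their values and no counting interval is given.

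The factors shared by all endocrine islet cells differed from each other in direction in the deposited values, though Isl1 changed sign with the same rescaling. Pax6, which carries a paired domain beside its homeodomain and also acts at the glucagon gene (ENSMUSG00000027168, chromosome 2, 105668900 to 105697364), stood at 92.5 FPKM at 25 mM, against 85.5 at 2.8 mM, a log2 change of 0.11. Isl1, a LIM-homeodomain protein that works with the adaptor Ldb1 (ENSMUSG00000042258, chromosome 13, 116298281 to 116309689), stood at 17.1 FPKM at 25 mM, against 17.8 at 2.8 mM, a log2 change of -0.05. That was the value closest to 0 among the 9.

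Foxa2 and Insm1, which act early in the endocrine lineage and remain on in beta cells, were the 2 least abundant factors. Foxa2, a forkhead protein (ENSMUSG00000037025, chromosome 2, 148042877 to 148046969), stood at 12.9 FPKM at 25 mM, against 14.6 at 2.8 mM, a log2 change of -0.17. Insm1 (ENSMUSG00000068154, chromosome 2, 146221921 to 146225020) stood at 2.40 FPKM at 25 mM, against 2.12 at 2.8 mM, a log2 change of 0.12. Only 113 fragments at 25 mM and 116 at 2.8 mM lay behind it, and the counting interval of its log2 ratio, -0.21 to 0.57, was the widest of the 5.

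**Figure D1:**
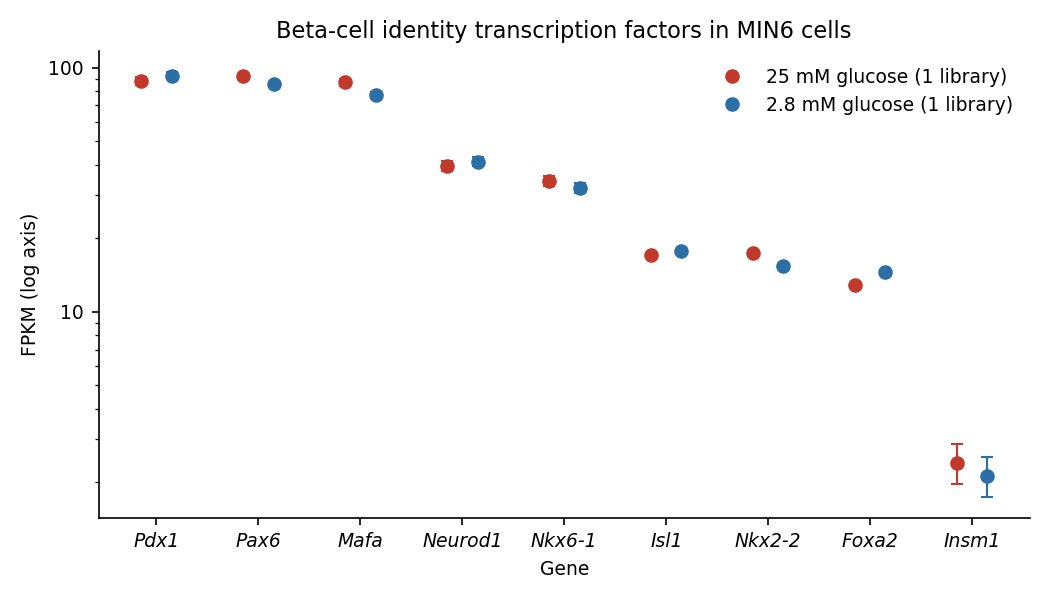
FPKM of the 9 factors (log axis) in the 25 mM library (red) and the 2.8 mM library (blue), 1 library each, ordered by mean FPKM. Bars are 95% counting intervals for the 5 factors with a single transcript; Pdx1, Pax6 and Mafa lie together between 77.1 and 92.7 FPKM and Insm1 lies apart at 2.40 and 2.12 FPKM.

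As a set, 0 of the 9 factors were 1.5-fold apart, against 4.45% of the 12694 expressed genes, and 0 of 9 were 1.2-fold apart, against 18.2%. The factors' log2 changes ran from -0.17 to 0.17, a range that also held 67.0% of all expressed genes. Higher values at 25 mM were found for 5 of the 9 factors (Mafa, Nkx6-1, Nkx2-2, Pax6 and Insm1), against 45.6% of expressed genes. The median log2 change was 0.09 over the 9 factors and -0.02 over all expressed genes. Without regard to sign, the median change was 0.11 both for the factors and for all expressed genes. Of 977 genes that the authors' annotation columns list as DNA-binding transcription factors, 507 were expressed. Of these, 42.0% were higher at 25 mM, and their median log2 change was -0.04.

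The sign of the smaller changes depended on how the libraries were scaled. When both libraries were rescaled to the same summed FPKM, which moved the median of all expressed genes by 0.062, Neurod1 and Isl1 turned from lower to higher at 25 mM and 7 of the 9 factors were higher. Pdx1 and Foxa2 remained lower, Pdx1 at a log2 change of -0.0064 and Foxa2 at -0.10. When rescaled without mitochondrial and the 10 most abundant genes, each of the 9 factors kept its sign. The 5 factors that were higher in the deposited values stayed higher under both rescalings and under centring. Each of these moved the changes upward, so a positive change could not have turned negative.

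**Figure D2:**
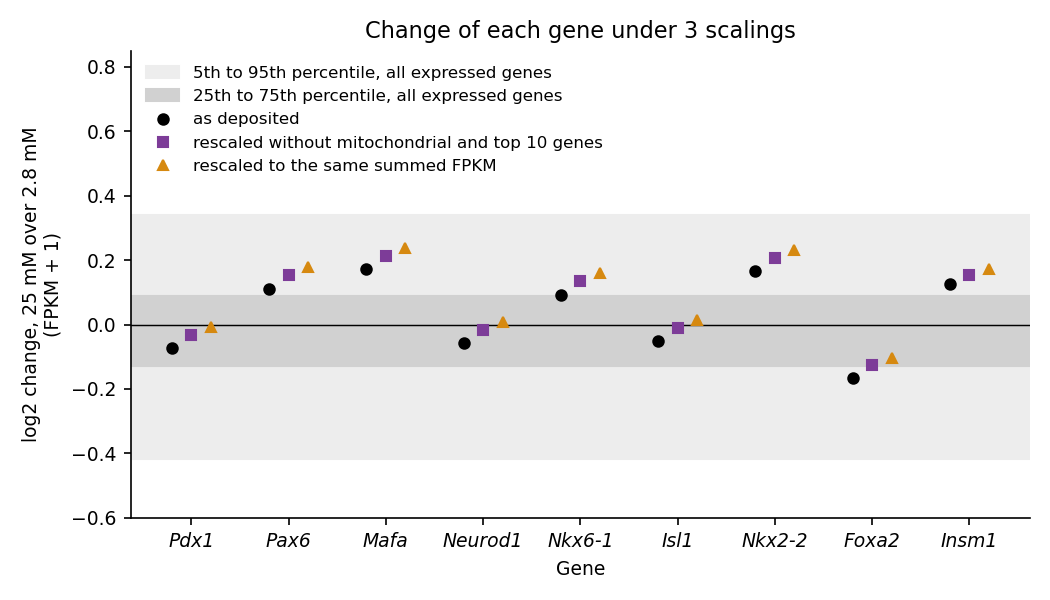
The log2 change of each factor, 25 mM over 2.8 mM, as deposited (circles) and rescaled with mitochondrial and the top 10 genes left out (squares) or to the same summed FPKM (triangles). Grey bands give the central 50% and 90% of the 12694 expressed genes; all 9 factors lie within the wider band, and Neurod1 and Isl1 cross 0 under the second rescaling.

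Differences of this size were common between the libraries. Among 287 other protein-coding genes with a single transcript and a mean of 10 to 100 FPKM, the log2 ratio between the libraries had a robust SD of 0.13 across genes, whereas counting error gave a median SD of 0.065. Divided by its own counting SD, the changes of these genes spread with a robust SD of 1.97 (close to 1 if counting were the sole source of error), so the counting intervals are narrower than the gene-to-gene variation between these libraries.

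Relative abundance within the set was taken as the percentage of the summed FPKM of the 9 factors, which was 391 FPKM at 25 mM, against 379 at 2.8 mM. Pax6 made up 23.6% of it at 25 mM and 22.6% at 2.8 mM, Pdx1 22.5% and 24.5%, and Mafa 22.2% and 20.4%. Together these 3 genes held more than the other 6 in each library. Neurod1 made up 10.1% at 25 mM and 10.9% at 2.8 mM, and Nkx6-1 8.79% and 8.50%. Nkx2-2 (4.46% and 4.08%), Isl1 (4.38% and 4.69%) and Foxa2 (3.29% and 3.85%) formed a lower tier, and Insm1 made up 0.613% at 25 mM and 0.559% at 2.8 mM.

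The order of the factors changed at 2 places. At 25 mM it was Pax6, Pdx1, Mafa, Neurod1, Nkx6-1, Nkx2-2, Isl1, Foxa2 and Insm1. At 2.8 mM Pdx1 stood above Pax6, and Isl1 above Nkx2-2. Both exchanges involve genes that were within 1.2-fold of each other in each library, and each involves a factor with several transcripts, so no interval could be set to them. Pdx1 and Mafa were neighbours at 25 mM, where their intervals overlapped (84.8 to 91.4 FPKM and 84.2 to 89.9 FPKM). At 2.8 mM Pax6, which has no interval, lay between them. Their intervals did not overlap there (89.6 to 95.9 FPKM and 74.7 to 79.7 FPKM). Neurod1 lay above Nkx6-1 without overlap in both libraries.

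Ratios between factors within a library are free of the scaling of that library. Over the 10 pairs of the 5 single-transcript factors, the counting interval of the log2 change in ratio left out 0 for 4 pairs. The ratio of Pdx1 to Mafa was 1.01 at 25 mM and 1.202 at 2.8 mM, a log2 change of -0.25 (interval -0.35 to -0.15). The ratio of Mafa to Neurod1 was 2.20 at 25 mM and 1.87 at 2.8 mM, a log2 change of 0.23 (0.12 to 0.35). The other 2 pairs were Pdx1 to Nkx6-1 (-0.17, interval -0.29 to -0.05) and Neurod1 to Nkx6-1 (-0.16, -0.29 to -0.02). The 4 pairs share members, and these intervals hold counting error alone, which was smaller than the spread between the libraries. The ratio of Pdx1 to Neurod1 was 2.23 at 25 mM and 2.25 at 2.8 mM, with an interval of -0.13 to 0.11.

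**Figure D3:**
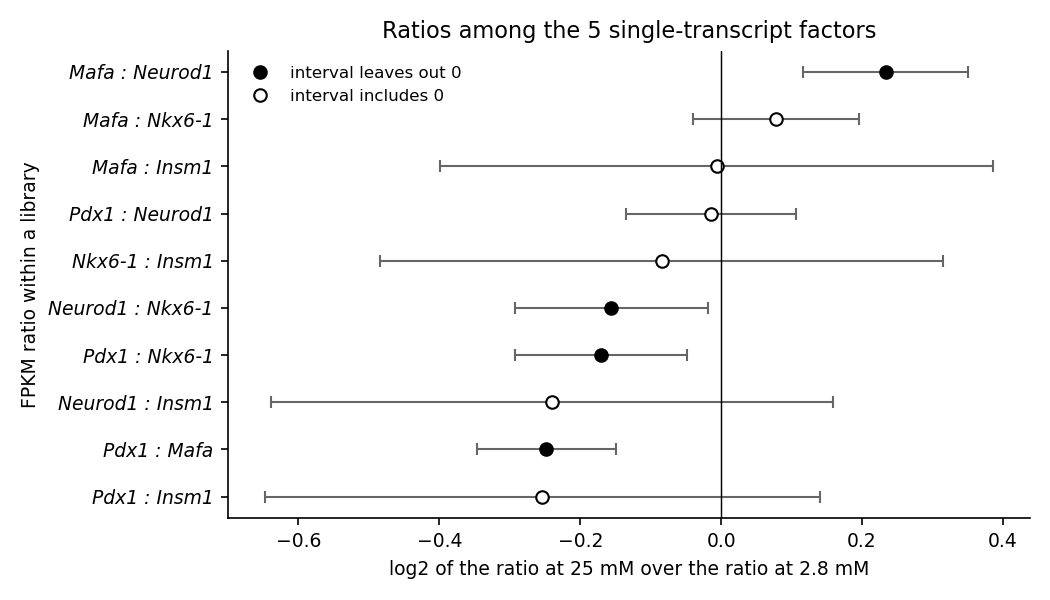
Change in the FPKM ratio of each pair of single-transcript factors, as log2 of the ratio at 25 mM over the ratio at 2.8 mM, with 95% counting intervals. Filled points mark the 4 of 10 pairs whose interval leaves out 0; they range from -0.25 for Pdx1 to Mafa up to 0.23 for Mafa to Neurod1.

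The factors were also ranked among genes that share their DNA-binding domain. By the domain column of the deposited tables, 218 genes carry a homeobox, of which 48 were expressed and 115 were listed at 0 in both libraries. Pdx1 had the highest mean level of them, Nkx6-1 was at rank 7, Isl1 at rank 10 and Nkx2-2 at rank 11. Pax6 has no entry in that column, and its level would place it next to Pdx1. Between Pdx1 and Nkx6-1 lay Cux1, the ceramide synthase genes Cers2 and Cers5, Pbx3, which encodes a partner of homeodomain proteins, and Meox2. These 4 factors held 24.2% of the summed FPKM of homeobox genes at 25 mM and 24.5% at 2.8 mM. By the same column, Mafa was at rank 2 of 12 genes with a Maf-type leucine zipper and Foxa2 at rank 4 of 44 forkhead genes. Neurod1 was at rank 7 of 101 genes with a helix-loop-helix entry. The E-protein gene Tcf12 is missing from these entries, and it stood above Neurod1 (52.1 FPKM at 25 mM, against 63.1 at 2.8 mM). Among 977 annotated transcription factors, ordered by mean FPKM, Pdx1 was at rank 18, Mafa at 20, Neurod1 at 61 and Nkx6-1 at 80. Isl1 was at 150, Nkx2-2 at 161, Foxa2 at 183 and Insm1 at 436. Pax6 is not among the genes annotated in this way, and its mean level lies between those of Pdx1 and Mafa.

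**Figure D4:**
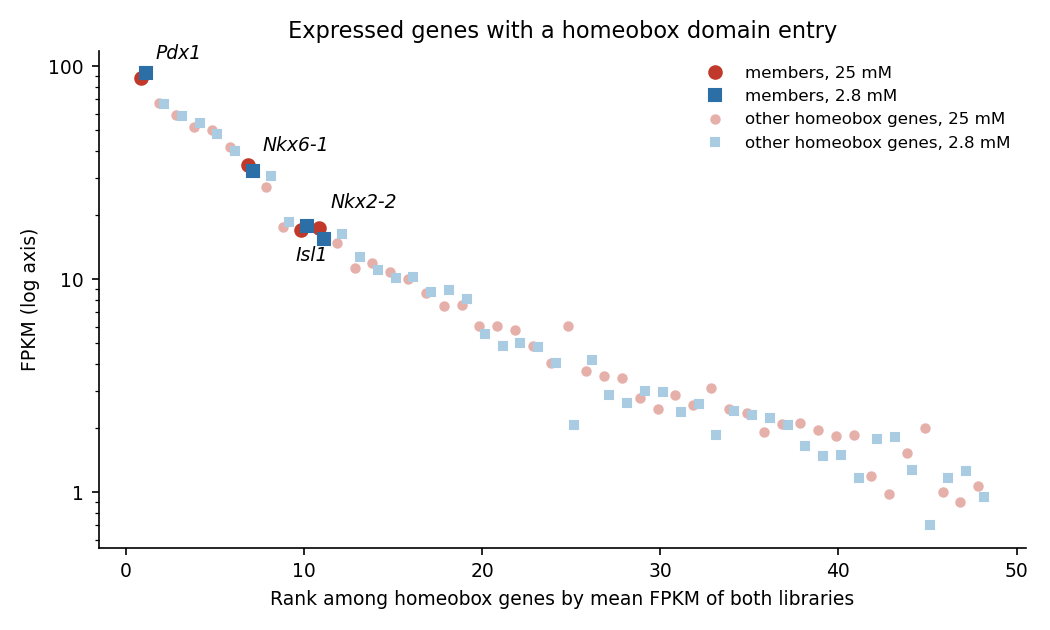
FPKM (log axis) of the 48 expressed genes with a homeobox entry, by rank of mean FPKM, at 25 mM (circles) and 2.8 mM (squares). Dark symbols are Pdx1, Nkx6-1, Isl1 and Nkx2-2, which lie at ranks 1, 7, 10 and 11.

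Most close paralogs of the factors lay below 1 FPKM. Of 19 paralogs of 8 factors, 2 were expressed and 7 were listed at 0 in both libraries. The expressed ones were Nkx6-2 (6.03 FPKM at 25 mM, against 5.52 at 2.8 mM) and Foxa1 (5.75 and 4.50 FPKM), and both stood below Nkx6-1 and Foxa2. Among paralogs of Mafa, Maf was listed at 0 in both libraries and Nrl was at 0.127 FPKM at 25 mM, against 0.453 at 2.8 mM. Pax4, a beta-cell factor of the embryo related to Pax6, was at 0.148 FPKM at 25 mM and listed at 0 at 2.8 mM. An exact 0 in FPKM tables can also be a failed estimate.

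Position and overlap bear on how the values can be read. Of the 9 factor genes, 5 lie on chromosome 2 (Neurod1, Pax6, Insm1, Nkx2-2 and Foxa2), which holds 8.38% of the protein-coding genes listed. Insm1, Nkx2-2 and Foxa2 lie within 1.83 Mb of each other, and they did not share a direction, as Foxa2 was lower and the other two higher at 25 mM. Annotated genes overlap 4 of the factors. Plut, an antisense RNA across the start of Pdx1, was at 6.61 FPKM at 25 mM, against 7.38 at 2.8 mM. Pax6os1, antisense to the start of Pax6, was at 7.36 FPKM at 25 mM, against 6.13 at 2.8 mM. The log2 changes of these antisense RNAs were -0.14 for Plut and 0.23 for Pax6os1, each with the sign of its factor.

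No source used here says whether the libraries keep strand, and without strand the reads of overlapping genes cannot be told apart. Nkx2-2 is overlapped by Nkx2-2os (listed at 0 at 25 mM and 0.0128 FPKM at 2.8 mM) and by 6430503K07Rik (0.286 FPKM at 25 mM, against 1.33 at 2.8 mM), both antisense. Their log2 changes, -0.02 and -0.86, had the opposite sign to that of Nkx2-2. Neurod1 lies inside the gene span of Cerkl, on the same strand, which was at 3.55 FPKM at 25 mM, against 3.18 at 2.8 mM. Also overlapping Neurod1 on the other strand is the long non-coding RNA Gm26755, not analysed here. Of the 31-base words of the longest transcript, 12.3% in Nkx2-2 and 11.2% in Neurod1 occurred in transcripts of another gene, mainly Nkx2-2os and Cerkl. For the other 7 factors this share was between 0% and 1.47%, with the highest value for Insm1.

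Other transcription factors of the islet lineage were compared by the same measure. Of 35 such genes, 25 were expressed, 11 of them higher and 14 lower at 25 mM, with a median log2 change of -0.04, which became 0.0067 when the libraries were rescaled to the same sum. After the added 1, 0 of these 25 were 1.5-fold apart, against 4.45% of expressed genes, and 4 (16.0%) were 1.2-fold apart, against 18.2%. With an added 0.1 in its place, 2 were 1.5-fold apart. The most abundant were Xbp1, which drives the secretory stress response (42.4 FPKM at 25 mM, against 46.0 at 2.8 mM), Ppard (19.6 and 23.0 FPKM), Thra (17.3 and 16.8 FPKM), Myt1, a zinc finger factor of endocrine cells (14.5 and 16.0 FPKM), and Tshz1 (13.2 and 13.0 FPKM). The lowest log2 changes belonged to Zbtb20 (1.62 FPKM at 25 mM, against 2.71 at 2.8 mM, -0.50) and Hnf4a, a gene mutated in monogenic diabetes (1.08 and 1.95 FPKM, -0.50). Foxa1 (0.29) and Nfatc1 (0.22), a calcineurin-regulated factor, were the highest. Neurog3, the trigger of endocrine fate in the embryo, was listed at 0.

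Partners and cofactors of the 9 factors, which include dimerisation partners, coactivators, corepressors and inhibitors, were nearly all expressed. Of 42, 40 were expressed, 22 higher and 18 lower at 25 mM, with a median log2 change of 0.02. After the added 1, 0 of the 40 were 1.5-fold apart, against 4.45% of expressed genes, and 5 (12.5%) were 1.2-fold apart, against 18.2%. Tle5, a short Groucho-family protein (240 FPKM at 25 mM, against 211 at 2.8 mM), Smarca2, a chromatin-remodelling ATPase (146 and 125 FPKM), and the histone deacetylase gene Hdac2 (123 and 123 FPKM) led the list, followed by Spop, whose protein targets Pdx1 for degradation (79.8 and 89.3 FPKM), and the DNA methyltransferase gene Dnmt1 (69.4 and 73.8 FPKM). The corepressor genes Rcor2 (15.6 FPKM at 25 mM, against 11.6 at 2.8 mM, log2 change 0.39) and Sin3a (20.9 and 16.8 FPKM, 0.30) were the highest. Id1, which encodes an inhibitor of helix-loop-helix dimers (5.56 FPKM at 25 mM, against 7.64 at 2.8 mM, -0.40), and Tcf12, an E-protein gene whose product pairs with Neurod1 (52.1 and 63.1 FPKM, -0.27), were the lowest. Men1, a gene active in most cells, was listed at 0 in both libraries.

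Known target genes of the factors had the lowest median size of change of the 3 lists and also the widest range, from -0.57 to 0.84. The lists differ in abundance, and the size of change was not compared at equal level. Of 39 targets, 33 were expressed, 18 higher and 15 lower at 25 mM, with a median log2 change of 0.0035 and a median size of 0.055. After the added 1, 1 gene was 1.5-fold higher, against 1.95% of expressed genes, 0 were 1.5-fold lower, against 2.51%, and 4 (12.1%) were 1.2-fold apart, against 18.2%. With an added 0.1 in its place, 2 were 1.5-fold apart. The gene that was higher was Cacna1d, for a voltage-gated calcium channel subunit (10.2 FPKM at 25 mM, against 5.26 at 2.8 mM, log2 change 0.84). Ins2 was at 50846 FPKM at 25 mM, against 60328 at 2.8 mM, a log2 change of -0.25, and Ins1 at 4344 and 4194 FPKM, a log2 change of 0.05. Iapp, whose promoter is printed above, was at 8198 FPKM at 25 mM, against 8637 at 2.8 mM. The granule gene Scg2 (4938 and 5001 FPKM) and the prohormone-processing gene Cpe (1683 and 1661 FPKM) completed the 5 most abundant. Scgn, for a calcium sensor of endocrine cells, was at 2.14 FPKM at 25 mM, against 1.72 at 2.8 mM (0.21), and the lowest changes were those of the prolactin receptor gene Prlr (3.09 and 5.07 FPKM, -0.57) and the incretin receptor gene Gipr (4.71 and 6.16 FPKM, -0.33).

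**Figure D5:**
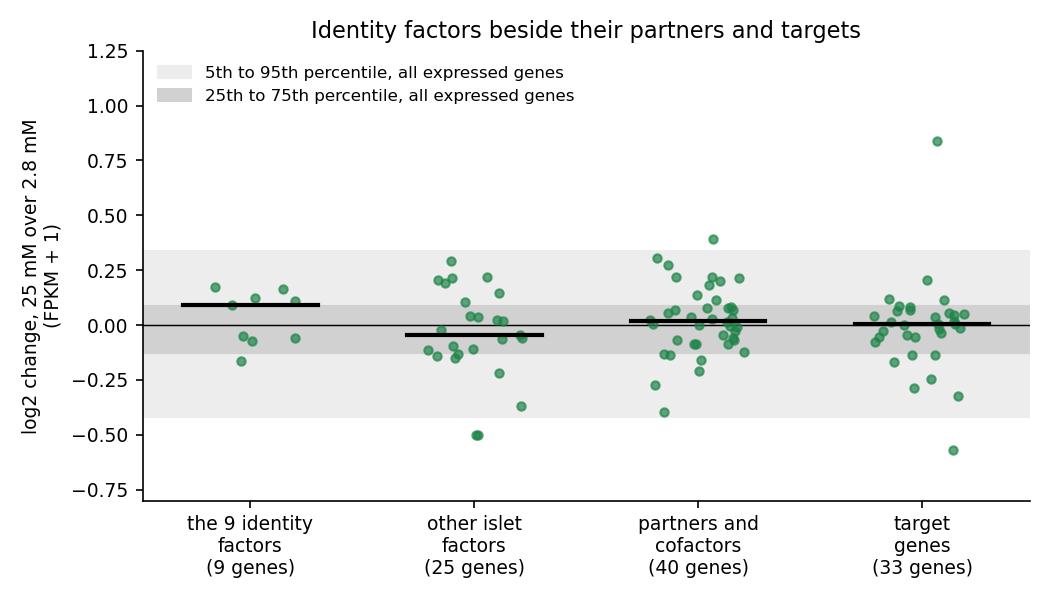
The log2 change, 25 mM over 2.8 mM, of each expressed gene among the 9 factors, 25 other islet transcription factors, 40 partners and cofactors and 33 targets; horizontal lines are medians and grey bands the central 50% and 90% of all expressed genes. Medians are 0.09, -0.04, 0.02 and 0.0035, and the point at 0.84 among the targets is Cacna1d.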

How the data were processed

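The deposited values are FPKM, 1 per gene and library, per the file headers. The submitters' processing notes list HISAT2, Cuffdiff and GRCm38 but no version. For the library kit, strandedness, annotation release and filters, the answer was not given in the sources used here. Each FPKM value divides by gene length and library size, so values depend on how the authors' software split reads among isoforms and overlapping genes. An empty row in each file (1 each) was left out. The 9 factors and all gene lists were chosen with earlier results of these data known. Paralogs were listed after the values were seen.

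A pseudocount of 1 was added before taking log2, and a mean of 1 FPKM or more counted as expressed. Total fragments were fitted to single-transcript genes of at least 800 nt; 94.5% of 2220 low values at 25 mM and 95.5% of 2462 at 2.8 mM came within 0.1 of a whole fragment. Exact 95% intervals (Clopper-Pearson for changes, Poisson for levels, conditional for ratios) cover counting error only. For Neurod1 they do not cover reads shared with Cerkl. From each list the 5 most abundant, 2 highest and 2 lowest genes were named, with Ins1, Ins2, Slc2a2, Ucn3, Neurog3, Gcg and Sst. A few other genes of that rule are not reported here. Other list genes were named after their values were seen. The symbol Tmem27 was read as Cltrn, by RefSeq synonyms. Transcripts and coordinates on GRCm38 were read from mouse GENCODE release 21, where 99.6% of the gene identifiers were found. Simulated libraries of known content were used to test the calculations. Alternatives were 2 other pseudocounts, 2 rescalings, centring, summed rows and 2 filters. Software was SciPy 1.17.1, pandas 2.3.3 and NumPy 2.4.6 under Python 3.11.15, with plots by matplotlib 3.10.9.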

Additional observations from a re-analysis of the deposited data

How the results depend on the processing

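The counts of factors at least 1.5-fold and 1.2-fold apart were 0 under each alternative tried. The factors' median log2 change stayed above that of all expressed genes. Rescaling and centring move both medians together, so they could hardly change that order. The factors' median was 0.056 with a pseudocount of 5 and 0.16 after rescaling to the same summed FPKM, against 0.09 as reported. The same rescaling took Mafa to 0.24, against 0.17, and Pax6 to 0.18, against 0.11. With a pseudocount of 0.1, 2 of the other transcription factors and 2 targets were 1.5-fold apart, against 0 and 1. With a pseudocount of 5, which shrinks every change by construction, 0 targets were 1.5-fold apart, and 0 other transcription factors, 1 partner and 2 targets were 1.2-fold apart, against 4, 5 and 4. Requiring a mean of 5 FPKM, which leaves fewer genes, 1 other transcription factor was 1.2-fold apart. Rescaling to the same summed FPKM moved the median log2 change of partners to 0.078 and of targets to 0.071, against 0.02 and 0.0035, and that of the other transcription factors to 0.0067, against -0.04. Of 168 comparisons with an alternative, 157 stayed within counting error, the interval of the median or 1.5 times the count. That number includes comparisons that could not move. Summing rows of the same symbol left each factor's change and share as they were, because each factor has 1 row. For factors with several transcripts, the counting error used here was approximated from the longest transcript. No paired analysis was possible because each glucose concentration has a single library. Depth limits Insm1 most, with 113 fragments at 25 mM and 116 at 2.8 mM. Its interval ran from -0.21 to 0.57 and included 0. That interval holds counting error only, and even so the direction of Insm1 was not settled.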
